A study of Mus musculus with 6 samples.

Results

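The genes described here encode the fibroblast growth factor (FGF) ligand Fgf2, the 4 signaling FGF receptors Fgfr1, Fgfr2, Fgfr3 and Fgfr4, and 5 inhibitors of receptor signaling, the Sprouty genes Spry1, Spry2 and Spry4 and the Sprouty-related genes Spred1 and Spred2. Rows were taken by gene symbol, for a set chosen with earlier results of these data known. All 10 members had a row among the 18943 genes of the deposited table. The table held RNA-seq values of muscle stem cells (MuSCs), the PAX7-positive stem cells of skeletal muscle, purified by FACS from wild-type C57BL/6 mice aged 8 weeks and kept in culture for 5 days. The cells had received DMSO, the solvent control, the peptide endothelin-3 (ET-3) or the peptide neurotensin (NT), each peptide at 100 nM per the labels. Both peptides act on G protein-coupled receptors, ET-3 on ETB and NT on NTS2, and the study asked whether this signaling holds MuSCs in quiescence. Each of the 3 groups had 2 libraries here, although the series text speaks of triplicates. The labels do not say whether the 2 libraries came from separate mice or cultures, so every p-value measures only the spread between libraries. The methods describe a growth medium with added FGF2 protein and a screening medium with chicken embryo extract, and which of them these cells were kept in is not given in the sources used here.

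FGF ligands bind receptor tyrosine kinases on the cell surface together with heparan sulfate, and the receptors pass the signal through adaptors to RAS and the ERK kinases. ERK signaling induces its own inhibitors: Sprouty and Spred proteins act on the RAS-ERK branch and form a negative feedback loop, and dual-specificity phosphatases remove the activating phosphates from ERK. In skeletal muscle FGF2 is known as a mitogen of MuSCs that delays their differentiation, FGFR1 and FGFR4 are the receptors most often described in the myogenic lineage, and Sprouty1 is known as a marker and regulator of MuSC quiescence.

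The promoters of Spry1 and Spry2 are shown because these paralogs moved in opposite directions under both peptides. Each line gives the 250 bases before the RefSeq gene start (GRCm38.p6), 5′ to 3′ on the gene's strand, with every E-box (CANNTG, the core bound by myogenic factors such as MYOD) in capitals. The Spry1 stretch is chr3:37639697-37639946 on the plus strand and the Spry2 stretch is chr14:105896820-105897069 on the minus strand.
Spry1: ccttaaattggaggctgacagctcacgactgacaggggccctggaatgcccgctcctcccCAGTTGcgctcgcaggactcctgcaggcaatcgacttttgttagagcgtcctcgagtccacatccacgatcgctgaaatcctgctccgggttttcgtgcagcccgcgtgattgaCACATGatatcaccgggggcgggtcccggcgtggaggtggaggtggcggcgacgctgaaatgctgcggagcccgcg
Spry2: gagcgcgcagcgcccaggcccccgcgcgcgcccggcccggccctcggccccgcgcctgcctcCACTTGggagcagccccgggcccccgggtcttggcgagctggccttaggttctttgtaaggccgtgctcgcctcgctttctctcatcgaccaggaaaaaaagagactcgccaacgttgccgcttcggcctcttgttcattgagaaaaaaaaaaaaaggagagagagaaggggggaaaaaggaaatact
In the full windows of 300 bases (250 before and 50 after the start), CANNTG, which reads the same on both strands, occurred 2 times at Spry1 and 1 time at Spry2. RefSeq promoter windows were matched for 8 of the 10 members, with 9 windows in all because Fgfr3 had 2 starts, and 5 of these 9 windows held CANNTG against 72.3% of all 32851 promoter windows. Fgf2, Spred1 and Spred2 had no match. The ETS core CCGGAA, searched on both strands, was found in 2 of the 9 windows, those of Fgfr4 and Spry2, against 14.9% of all windows. The GC-core E-box CAGCTG occurred in 1 of the 9 windows (16.3% of all windows), and the AP-1 motif TGANTCA and the SRF motif in 0 (7.81% and 1.63% of all windows), each searched on both strands. A match in letters is a description of the sequence and not evidence of a bound site.

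The values were whole numbers that a per-library scaling had produced, so they are given as values and not as reads. The value totals of the 6 libraries lay between 4214458 and 4600575, and the reads on genes behind them were estimated at 3628952 to 5396233. For a value of 100 the counting error was 8.84% to 10.9%, and the members' own counting error was under 15% of the value in every library except for Fgfr2 (20.2% to 48.8%) and Fgf2 (11.6% to 32.3%). The 2 ET-3 libraries, like the 2 NT libraries, differed by no more than sampling noise (mean chi-square per gene 0.888 and 0.941), whereas the DMSO libraries differed by more (1.44). Each treated pair may therefore be close to a technical repeat, and the number of members that passed when the libraries of a treated group were replaced by their mean (treated pairs averaged) is given beside the main counts. The samples matched their labels as myogenic cells, with Pax7 at 857 and 1070 in DMSO and 1599 to 1754 in the treated libraries. Myod1 was at 1100 to 1539 in all 6, while Calcr, a quiescence marker, had values of 0 to 3. The listed markers of stem cells and myoblasts did not move one way. Of the 7 tested, 3 passed higher and 2 lower under ET-3, and 3 higher and 4 lower under NT. Cdh15 went from 1547 and 1746 in DMSO to between 436 and 496 in the treated libraries. Itga7 went from 2427 and 2651 to between 1851 and 2269. Myocyte genes (myogenin, muscle myosins and others) were lower with adjusted p at most 0.05 in 8 of 8 markers under each peptide, with summed values of 12912 and 14326 in DMSO, 400 and 439 in ET-3 and 403 and 303 in NT. Proliferation genes were higher in 6 of 6 (4889 and 5216 in DMSO against 6930 to 7602). The part of these shifts in the results on the FGF genes was not tested, and in bulk RNA a change in the share of a cell type and a change in RNA per cell cannot be told apart.

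Against DMSO, all 10 members passed an adjusted p of 0.05 under ET-3 (limma with Benjamini-Hochberg adjustment over 13921 tested genes), 6 of them higher and 4 lower. This share has to be read beside the background of all tested genes, of which 63.7% passed (30.6% higher and 33.2% lower). Under NT 9 members passed, 6 higher and 3 lower, beside 62.2% of all tested genes (29.7% higher and 32.5% lower). With the additional threshold of 2-fold, 5 members were called under ET-3 (Fgf2 higher, and Fgfr2, Fgfr3, Fgfr4 and Spry1 lower), beside 21.5% of all tested genes (6.62% higher and 14.9% lower). The same threshold called 4 members under NT (Fgf2 higher, and Fgfr3, Fgfr4 and Spry1 lower), beside 20.5% (7.3% higher and 13.2% lower). The libraries of DMSO and ET-3 did not overlap in any of the 10 members, which was also the case in 79.6% of all tested genes, and those of DMSO and NT did not overlap in 9, with 80.6% of all tested genes. The median log2 fold change over all tested genes was -0.01 in both comparisons, against 0.52 (ET-3) and 0.42 (NT) over the members. Both comparisons use the same 2 DMSO libraries, so their likeness is not independent. With treated pairs averaged, 6 members still passed under ET-3 (Fgfr2, Fgfr3, Fgfr4, Spry1, Spry2 and Spred2), beside 28.7% of all tested genes, and 4 under NT (Fgfr3, Fgfr4, Spry1 and Spred2), beside 24.8%.

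**Figure D1:**
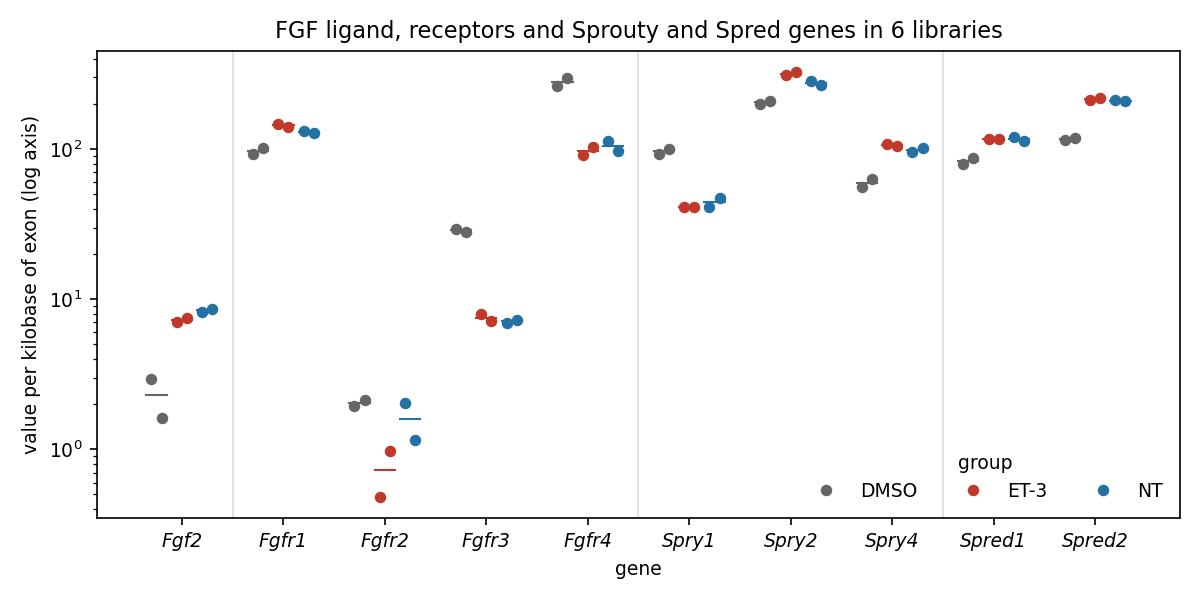
Value per kilobase of annotated exon (log axis) of the 10 genes in each of the 6 libraries, with points for libraries, horizontal lines for group means and colors for DMSO, ET-3 and NT. Fgfr4 falls from 264 and 299 in DMSO to between 91.2 and 113 in the treated libraries, while Spry2 and Spred2 lie above their DMSO values in all 4 treated libraries.

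Fgf2, which encodes the ligand, lies on mouse chromosome 3 from 37348346 to 37410108 (GRCm38, plus strand) and had the largest rise among the members. Its values were 20 and 11 in DMSO, 48 and 51 in ET-3 and 56 and 58 in NT. All 4 treated libraries were above both control libraries, and the DMSO libraries were further apart, relative to their level, than either treated pair. Under ET-3 its log2 fold change was 1.67 ± 0.27 (SE, n = 2 per group), with an adjusted p of 0.000405 by limma with Benjamini-Hochberg adjustment. Under NT it was 1.87 ± 0.27 (adjusted p = 0.000198, limma, same adjustment). As all fold changes here, these are on the scale of log2(value + 1), which understates the change of genes with low values. Fgf2 stayed one of the lowest members, at 1.62 to 2.95 per kilobase of exon in DMSO and 7.08 to 8.55 in the treated libraries. Its exons share 640 bases with those of Nudt6 on the opposite strand, and the values of Nudt6 were 65 and 48 in DMSO, 50 and 52 in ET-3 and 47 and 40 in NT. The labels and the methods name different library kits, so whether reads of the 2 strands were kept apart is not settled.

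Fgfr1, a receptor tyrosine kinase for FGF2 and other ligands (chromosome 8, 25513654 to 25575718, plus strand), was the only receptor that rose. Values of 915 and 995 were measured in DMSO, 1446 and 1393 in ET-3 and 1289 and 1253 in NT. The 3 groups did not overlap, with ET-3 highest and DMSO lowest. The rise was 1.49-fold under ET-3 (log2 0.57 ± 0.05, adjusted p = 5.23e-06, limma with Benjamini-Hochberg adjustment) and 1.33-fold under NT (log2 0.41 ± 0.05, adjusted p = 5.68e-05).

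Fgfr4, the receptor that is typical of the myogenic lineage (chromosome 13, 55152640 to 55168759, plus strand), moved the other way. Its values were 934 and 1060 in DMSO, 323 and 365 in ET-3 and 402 and 346 in NT. All 4 treated libraries lay far below both control libraries, and the 2 treated groups overlapped each other. Fgfr4 fell 2.89-fold under ET-3 (log2 -1.53 ± 0.09, adjusted p = 2.79e-07, limma with Benjamini-Hochberg adjustment) and 2.66-fold under NT (log2 -1.41 ± 0.09, adjusted p = 5.28e-07).

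Fgfr3 (chromosome 5, 33721674 to 33737068, plus strand) had the largest fall of the 10 genes when averaged over both peptides. In DMSO it was at 211 and 201, in ET-3 at 57 and 51 and in NT at 50 and 52. The control libraries were well separated from all 4 treated ones, and the treated groups overlapped. Fgfr3 fell by 1.91 ± 0.13 on the log2 scale under ET-3 (3.77-fold lower, adjusted p = 1.03e-06, limma with Benjamini-Hochberg adjustment) and fell by 1.99 ± 0.13 under NT (3.98-fold lower, adjusted p = 8.41e-07).

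Fgfr2 (chromosome 7, 130162451 to 133123350, minus strand) was near the limit of detection. Its values were 20 and 22 in DMSO, 5 and 10 in ET-3 and 21 and 12 in NT, so that NT overlapped DMSO and ET-3 did not. Under ET-3 it passed with a log2 fold change of -1.44 ± 0.39 (adjusted p = 0.00912, limma with Benjamini-Hochberg adjustment), but this call was lost without the first DMSO library (adjusted p = 0.0887), without the second DMSO library (0.108) and without the first ET-3 library (0.082). Over all 15 alternatives that kept the gene its adjusted p lay between 0.00486 and 0.108. Under NT the log2 difference was -0.38 ± 0.39 (adjusted p = 0.428), with a 95% interval from -1.26 to 0.50. Its annotated exons share 314 bases with those of Ctbp2 on the same strand. The annotated gene reaches far beyond its RefSeq promoter window (130266759 to 130267058), so its exonic length and its level per kilobase depend on this annotation.

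The make-up of the receptor RNA is described by shares. Values were divided by the length of all annotated exons (9875 bases for Fgfr1 and 3542 for Fgfr4), whichever of them the cells used. On this scale Fgfr4 made up 68.0% and 69.6% of the summed receptor level in DMSO, 37.1% and 40.9% in ET-3 and 44.9% and 41.9% in NT. Fgfr1 made up 23.9% and 23.4% in DMSO, 59.5% and 55.9% in ET-3 and 51.6% and 54.5% in NT. Per kilobase, Fgfr4 was thus the leading receptor in both DMSO libraries and Fgfr1 in all 4 treated libraries. The lead of Fgfr4 in DMSO rests on the annotated exon lengths. Undivided DMSO values were close, with 915 and 995 for Fgfr1 and 934 and 1060 for Fgfr4. The ratio of the values of Fgfr1 to Fgfr4 within a library, which does not depend on the scaling, was 0.98 and 0.939 in DMSO, 4.48 and 3.82 in ET-3 and 3.21 and 3.62 in NT. Fgfr3 contributed 7.6% and 6.53% in DMSO and 2.76% to 3.24% in the treated libraries, and Fgfr2 stayed under 1% throughout. The summed receptor level per kilobase was 388 and 430 in DMSO, 246 and 252 in ET-3 and 253 and 233 in NT. These shares describe RNA levels and were not tested on their own.

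**Figure D2:**
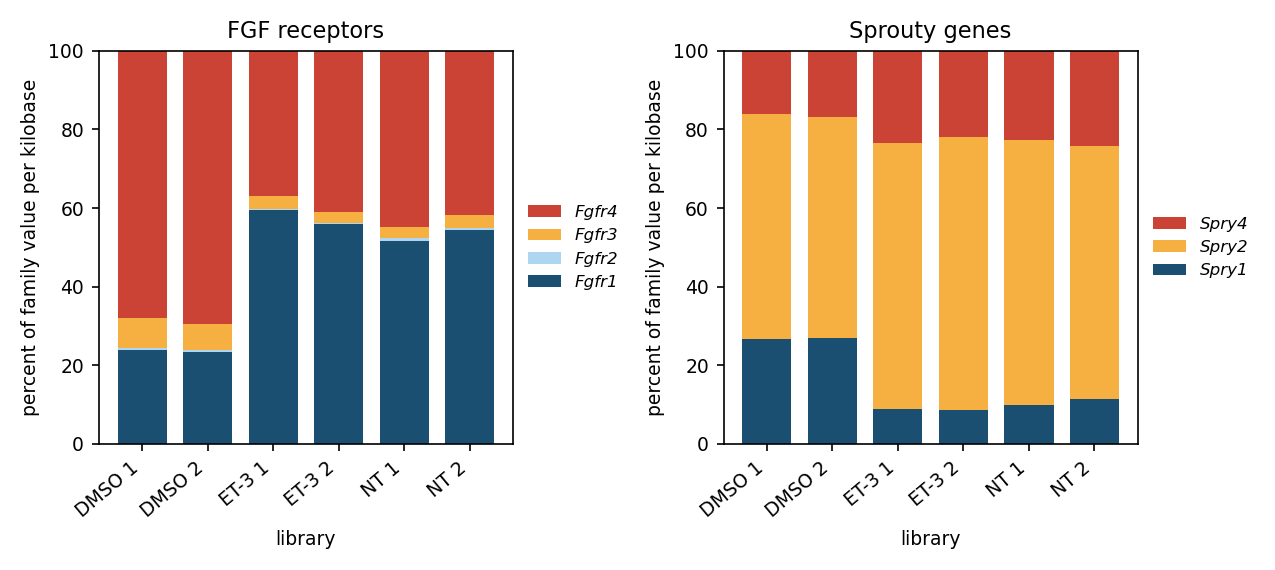
Share (percent) of the summed value per kilobase taken by each FGF receptor (left) and each Sprouty gene (right) in the 6 libraries, 1 stacked bar per library. Fgfr4 takes 68.0% and 69.6% in DMSO and 37.1% to 44.9% in the treated libraries, and Spry1 takes 26.7% and 26.9% in DMSO and 8.7% to 11.4% in the treated ones.

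Among the inhibitors, Spry1 stood alone in its direction. The gene lies on chromosome 3 from 37639947 to 37644598 (plus strand), 229.8 kb beyond the end of Fgf2. Its values were 269 and 292 in DMSO, 119 in both ET-3 libraries and 120 and 137 in NT. All treated libraries were below both control libraries, and the lowest NT library lay just above the ET-3 pair. Spry1 fell 2.34-fold under ET-3 (log2 -1.23 ± 0.10, adjusted p = 2.5e-06, limma with Benjamini-Hochberg adjustment) and 2.18-fold under NT (log2 -1.12 ± 0.10, adjusted p = 5.12e-06). Fgf2 and Spry1, neighbours on this chromosome, thus changed in opposite directions. Between them lies Spata5, with values of 302 in both DMSO libraries, 318 and 305 in ET-3 and 350 and 349 in NT. Spry1 shares 710 exonic bases with Gm42922 on the opposite strand, a gene model of unknown function with 22 and 17 in DMSO and 1 to 5 in the treated libraries.

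Spry2 (chromosome 14, 105891947 to 105896819, minus strand), which like Spry1 encodes an inhibitor of the RAS-ERK branch, rose. It was measured at 415 and 438 in DMSO, 646 and 681 in ET-3 and 596 and 554 in NT. The 3 groups did not overlap and ET-3 was highest. The rise was 1.55-fold under ET-3 (log2 0.64 ± 0.06, adjusted p = 6.3e-06, limma with Benjamini-Hochberg adjustment) and 1.35-fold under NT (log2 0.43 ± 0.06, adjusted p = 0.000108).

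Spry4 (chromosome 18, 38586247 to 38601415, minus strand) rose as well. Values of 264 and 301 in DMSO compared with 514 and 493 in ET-3 and 454 and 478 in NT. Every treated library was above both control libraries. The increase was 1.78-fold under ET-3 (log2 0.83 ± 0.07, adjusted p = 3.74e-06, limma with Benjamini-Hochberg adjustment) and 1.65-fold under NT (log2 0.72 ± 0.07, adjusted p = 1.11e-05).

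Within the Sprouty genes Spry2 was the most abundant per kilobase in all 6 libraries, and the place of the others changed. Spry1 made up 26.7% and 26.9% of the summed Sprouty level per kilobase in DMSO, 8.93% and 8.7% in ET-3 and 9.78% and 11.4% in NT. Spry4 made up 16% and 16.9% in DMSO and 22.0% to 24.3% in the treated libraries. The ratio of the values of Spry4 to Spry1 was 0.981 and 1.03 in DMSO, 4.32 and 4.14 in ET-3 and 3.78 and 3.49 in NT, while that of Spry2 to Spry1 went from 1.54 and 1.5 in DMSO to between 4.04 and 5.72 in the treated libraries. The Sprouty sum per kilobase was 347 and 374 in DMSO, 459 and 471 in ET-3 and 422 and 413 in NT, so the sum was higher in all treated libraries although Spry1 was lower.

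Spred1 and Spred2 encode membrane-associated inhibitors that, as background, act on RAS through neurofibromin. Spred1 (chromosome 2, 117121374 to 117182279, plus strand) was at 543 and 587 in DMSO, 788 in both ET-3 libraries and 820 and 768 in NT. It rose 1.4-fold under each peptide, by log2 0.48 ± 0.05 under ET-3 (adjusted p = 3.19e-05, limma with Benjamini-Hochberg adjustment) and 0.49 ± 0.05 under NT (adjusted p = 2.92e-05). The treated groups overlapped each other and neither overlapped DMSO.

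Spred2 (chromosome 11, 19924375 to 20024026, plus strand) was at 531 and 551 in DMSO, 984 and 1010 in ET-3 and 983 and 961 in NT. Of the 10 members it had the smallest adjusted p under both peptides. It rose 1.84-fold under ET-3 (log2 0.88 ± 0.05, adjusted p = 1.17e-07, limma with Benjamini-Hochberg adjustment) and 1.80-fold under NT (log2 0.84 ± 0.05, adjusted p = 1.71e-07). Not divided by exon length, Spred1 and Spred2 had near-equal values in DMSO (ratio of Spred2 to Spred1 of 0.978 and 0.939). In the treated libraries this ratio was 1.2 to 1.28. Per kilobase Spred2 was the higher one in every library, already in DMSO (115 and 119 against 80.0 and 86.5 for Spred1). Nf1, which encodes neurofibromin, had values of 976 and 895 in DMSO, 872 and 899 in ET-3 and 1015 and 989 in NT and did not pass under either peptide (adjusted p = 0.212 and 0.117, limma with Benjamini-Hochberg adjustment). Its difference passed under ET-3 without the second DMSO library (log2 -0.14), and under NT with each library scaled to its total (0.21) or to its upper quartile (0.14) and without the first DMSO library (0.16). Spred3, the remaining Spred gene and no member of the set, rose from 144 and 168 in DMSO to 290 and 292 in ET-3 and 251 and 278 in NT (log2 0.90 ± 0.09 and 0.76 ± 0.09).

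Averaging the treated pairs left 1 sample in each treated group, so that the spread came from the 2 DMSO libraries alone and was assumed to hold for the treated groups. In this fit, Fgf2, Fgfr1, Spry4 and Spred1 no longer passed under either peptide, nor Spry2 under NT, with adjusted p between 0.0503 and 0.122 (limma with Benjamini-Hochberg adjustment). Their log2 fold changes were the same as before (1.67 and 1.87 for Fgf2, 0.57 and 0.41 for Fgfr1, 0.83 and 0.72 for Spry4, 0.48 and 0.49 for Spred1 and 0.43 for Spry2 under NT). Spred2 under both peptides and Spry2 under ET-3 rose and still passed. For each of the lost calls this was the highest adjusted p of 16 alternatives, and every other alternative passed. Fgfr3, Fgfr4, Spry1 and Spred2 passed under all 16 alternatives in both comparisons.

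**Figure D3:**
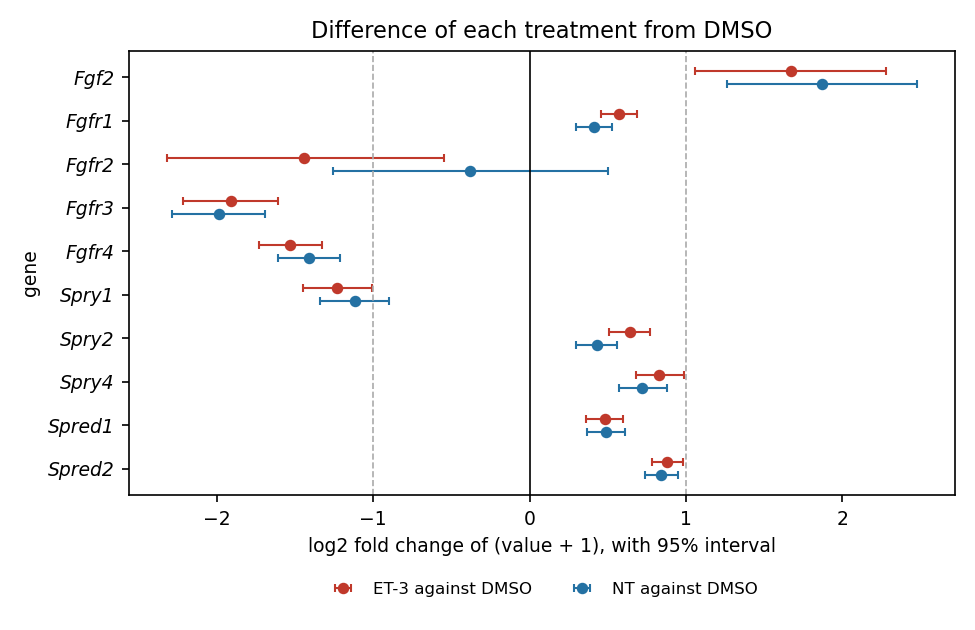
Log2 fold change of value + 1 against DMSO for each of the 10 genes, with points for ET-3 and NT and bars for the 95% interval, and dashed lines at 2-fold. Fgf2 lies beyond 2-fold higher and Fgfr3, Fgfr4 and Spry1 beyond 2-fold lower under both peptides, and the interval of Fgfr2 under NT reaches from -1.26 to 0.50.

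Ordered by level per kilobase, the members ran in DMSO from Fgfr4 (264 and 299) over Spry2 (199 and 210), Spred2, Fgfr1, Spry1, Spred1, Spry4 and Fgfr3 to Fgf2 and Fgfr2. In this order Fgfr1 and Spry1 overlapped (92.7 and 101 against 92.6 and 100), as did Fgf2 and Fgfr2, and the other neighbours did not. In ET-3 the order was Spry2 (310 and 326), Spred2, Fgfr1, Spred1, Spry4, Fgfr4, Spry1, Fgfr3, Fgf2 and Fgfr2, with an overlap of Fgfr3 and Fgf2 only. In NT, Spry2 (286 and 265), Spred2 and Fgfr1 again led, Spred1, Fgfr4 and Spry4 overlapped in turn, and Spry1, Fgf2, Fgfr3 and Fgfr2 followed without overlap. Fgfr4 thus held rank 1 in DMSO, rank 6 in ET-3 and rank 5 in NT, an order that depends on the annotated exon lengths.

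When NT was compared directly with ET-3, limma with Benjamini-Hochberg adjustment passed 0 of 10 members, beside 2.69% of all tested genes, and 0.079% of them were called at 2-fold. At an unadjusted p under 0.05 there were 3 members (Fgfr1, Fgfr2 and Spry2), beside 19.9% of all tested genes, and limma with voom weights passed 2 of them, Fgfr1 and Spry2, beside 6.31%. The libraries of the 2 peptides did not overlap in 7 members, beside 49.6% of all tested genes. Fgfr1 was lower in NT by a log2 difference of -0.16 ± 0.05 (95% interval -0.27 to -0.05, adjusted p = 0.122 by limma, and between 0.0496 and 0.727 over 17 alternatives). Spry2 was lower in NT by -0.21 ± 0.06 (interval -0.34 to -0.08, adjusted p = 0.0905 by limma, and between 0.0318 and 0.88 over the alternatives). With a trend on coverage per base of exon removed, the Spry2 difference was -0.03. For Fgfr2 the difference was 1.06 ± 0.39 with an interval from 0.18 to 1.94 (adjusted p = 0.173, limma). The widest intervals among the other members were those of Fgf2 (-0.41 to 0.81) and Fgfr3 (-0.38 to 0.22), and Spred1 and Spred2 had the narrowest (-0.11 to 0.13 and -0.14 to 0.06).

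The other genes of the pathway were taken from 4 lists by role, 80 genes in all, of which 69 had a row and 66 were tested. Under ET-3 47 of the 66 passed (23 higher and 24 lower) and under NT 48 (22 higher and 26 lower), beside 63.7% and 62.2% of all tested genes. Their median log2 fold changes, -0.04 and -0.02, were also near that of all tested genes. Over all tested genes 30.6% passed higher and 33.2% lower under ET-3, and 29.7% and 32.5% under NT. The counts of the 4 lists below have to be read beside these shares.

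Among the ligand genes other than Fgf2, 9 of 17 had a row and 7 were tested. Under ET-3 2 rose, 4 fell and 1 did not pass, and under NT 1 rose, 4 fell and 2 did not pass, with medians of -3.06 and -2.50 on the log2 scale. Fgf21, Fgf6 and Fgf9 reached the filter of a mean value of 5 only through DMSO. Fgf15 and Fgf1 reached it only through treated libraries, and ligands low in every group (Fgf16 and Fgf20) were not tested. The counts and medians are thus partly set by this filter and are no result about the ligands as a group. Fgf21, an endocrine FGF that is made by stressed muscle, had values of 433 and 400 in DMSO, 2 and 4 in ET-3 and 2 and 5 in NT (log2 -6.75 ± 0.39 and -6.62 ± 0.39). Fgf6, an FGF largely restricted to skeletal muscle, was at 68 and 76 in DMSO and at 0, 0, 0 and 1 in the 4 treated libraries, where no fold can be given. Fgf9 was at 59 and 42 in DMSO and at 1 or 2 in each treated library, and Fgf5 at 170 and 131 in DMSO against 17 to 31. These 4 ligand genes were the ones that fell, and in each both DMSO libraries lay above all treated ones. Fgf15 had the opposite pattern at the lowest level, with 1 and 0 in DMSO, 14 and 11 in ET-3 and 4 and 11 in NT, and its call was lost with treated pairs averaged and, under NT, without the second DMSO library. Fgf1 passed under ET-3 only (4 and 5 in DMSO, 12 and 19 in ET-3, 6 and 13 in NT), and the difference between the peptides did not pass for it.

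Heparan sulfate chains and their enzymes, together with co-receptors and FGF-binding proteins, formed the second list, with 17 of 20 genes tested. Under ET-3 2 rose, 11 fell and 4 did not pass, and under NT 3 rose, 10 fell and 4 did not pass. Sulf2 and Sulf1 encode extracellular sulfatases that remove 6-O-sulfates from heparan sulfate and so modulate FGF binding. Sulf2 was at 300 and 335 in DMSO, 35 and 48 in ET-3 and 30 and 39 in NT, a log2 fold change of -2.92 ± 0.19 and -3.17 ± 0.19. Sulf1 went from 748 and 755 to 278 and 303 in ET-3 and 340 and 334 in NT (-1.37 ± 0.06 and -1.15 ± 0.06). Both sulfatase genes fell by more than 2-fold under each peptide. Fgfrl1, an FGF receptor-like protein without a kinase domain, differed little, with 373 and 414 in DMSO, 343 and 349 in ET-3 and 333 and 341 in NT. Its log2 fold changes of -0.18 and -0.22 passed, but the call was lost in 10 of 16 alternatives under ET-3 and in 5 of 16 under NT. Under both peptides these included scaling to library totals (-0.09 and -0.11), averaged treated pairs and leaving out the second DMSO library (-0.11 and -0.15) or either NT library, and under ET-3 also leaving out either ET-3 library.

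Adaptors and the RAS-ERK cascade were tested in full, 27 of 27 genes. Under ET-3 8 rose, 6 fell and 13 did not pass, and under NT 8 rose, 8 fell and 11 did not pass, with medians of -0.01 and 0.02. Ksr1, a scaffold of the RAF-MEK-ERK module, was the only gene of this list beyond 2-fold. It was at 477 and 467 in DMSO, 142 and 146 in ET-3 and 140 and 162 in NT (log2 -1.71 ± 0.09 and -1.64 ± 0.09, adjusted p = 9.91e-08 and 1.41e-07 by limma with Benjamini-Hochberg adjustment). Mapk3, which encodes an ERK kinase, rose within 2-fold, from 390 and 421 in DMSO to between 548 and 615 in the treated libraries. Frs2, the adaptor that binds FGF receptors, rose by 0.38 ± 0.06 and 0.40 ± 0.06 on the log2 scale.

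The fourth list held ETS transcription factors and other feedback targets of FGF-ERK signaling, with 15 of 16 genes tested and Spry3 without a row. Under ET-3 11 rose, 3 fell and 1 did not pass, and under NT 10 rose, 4 fell and 1 did not pass. The median log2 fold changes were 0.80 and 0.75, beside -0.01 for all tested genes. Etv4, an ETS factor, was at 190 and 187 in DMSO, 531 and 506 in ET-3 and 534 and 533 in NT (log2 1.45 ± 0.06 and 1.5 ± 0.06). Its relative Etv5 rose by less, from 357 and 305 to 454 and 438 in ET-3 and 437 and 426 in NT (0.43 ± 0.07 and 0.39 ± 0.07). Neither Etv5 nor Spred3 passed with treated pairs averaged. Etv1, of the same subfamily, fell from 129 and 139 to 46 and 47 in ET-3 and 49 and 45 in NT (-1.51 ± 0.15 and -1.49 ± 0.15). The subfamily thus did not move as a unit.

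The phosphatases and Il17rd of this list rose together with Spry2, Spry4 and the Spred genes. Dusp5, a nuclear ERK phosphatase, went from 234 and 206 in DMSO to 668 and 633 in ET-3 and 585 and 576 in NT (log2 1.56 ± 0.07 and 1.4 ± 0.07). Dusp6, its cytoplasmic counterpart, went from 186 and 201 to 350 and 323 in ET-3 and 323 and 331 in NT (0.80 ± 0.07 and 0.75 ± 0.07). Il17rd, also called Sef, which binds FGF receptors and restrains ERK signaling, was at 32 and 54 in DMSO, 93 and 75 in ET-3 and 91 and 99 in NT (0.99 ± 0.23 and 1.17 ± 0.23). All 3 were above both DMSO libraries in every treated library, but Il17rd did not pass with treated pairs averaged, nor under ET-3 without the first DMSO or the first ET-3 library. Fos, an immediate early target of ERK, fell instead, from 195 and 231 in DMSO to 37 and 40 in ET-3 and 49 and 55 in NT (-2.43 ± 0.15 and -2.01 ± 0.15). Egr1 also fell, with 736 and 1032 in DMSO and 617 to 671 in the treated libraries. Fosl1 and Myc of the list rose under each peptide. Fosl1 was at 308 and 284 in DMSO and 582 to 689 in the treated libraries, and Myc at 542 and 506 against 712 to 838. Phlda1 passed under NT only and was lower there (log2 -0.19 ± 0.06), with 570 and 635 in DMSO and 541 and 515 in NT. Ier3 passed under ET-3 only and was higher there (0.38 ± 0.10), with 140 and 125 in DMSO and 172 and 173 in ET-3. Spry1 was the one Sprouty or Spred gene with a row that fell.

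**Figure D4:**
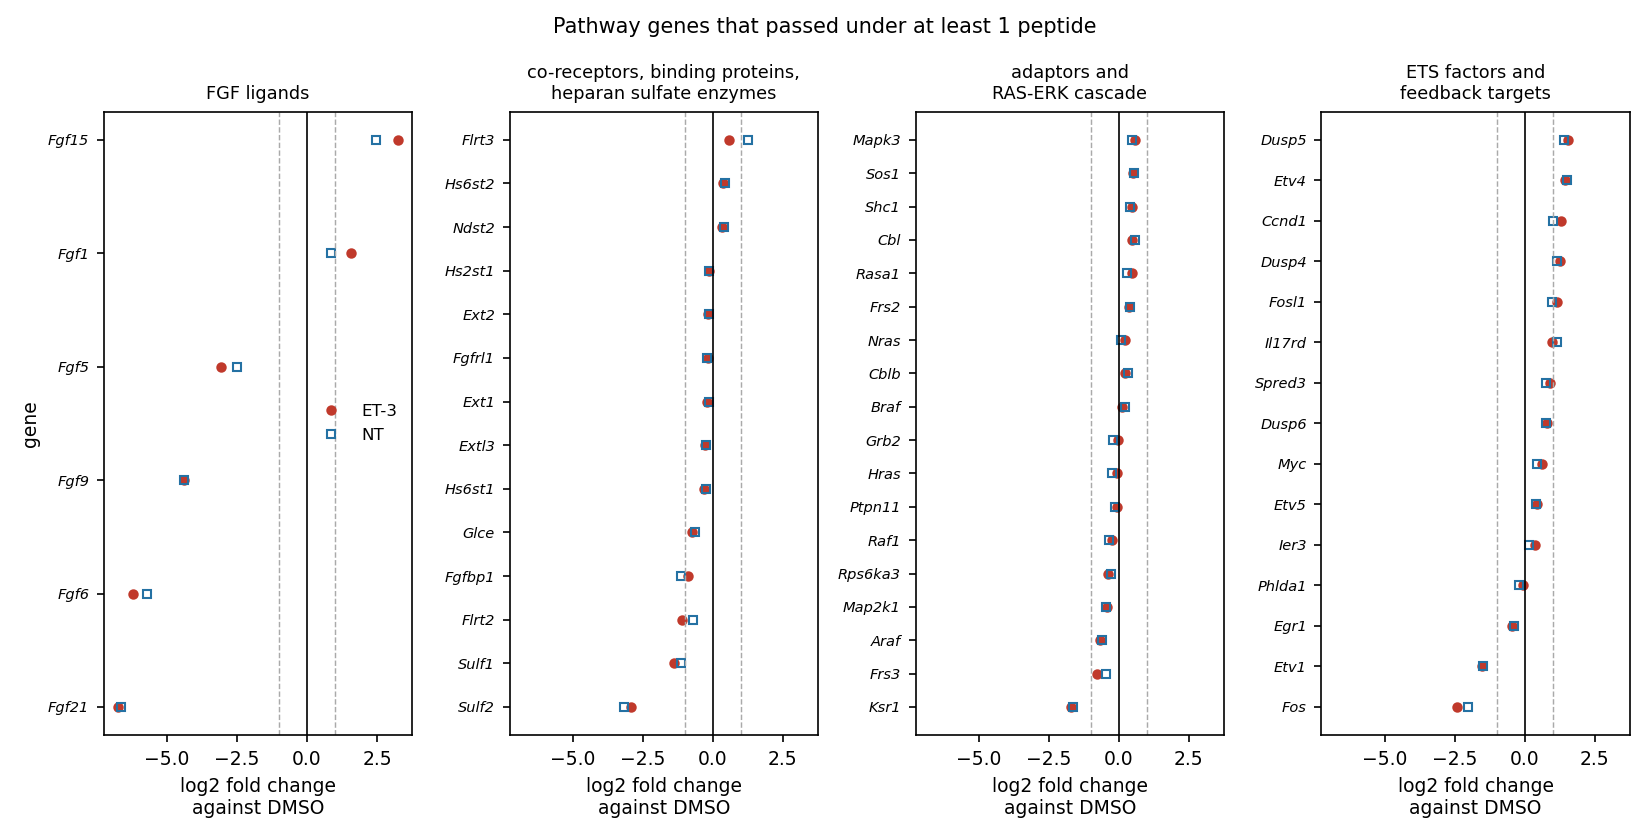
Log2 fold change against DMSO of the pathway genes that passed an adjusted p of 0.05 under at least 1 peptide, in 4 panels by role, with filled circles for ET-3, open squares for NT and dashed lines at 2-fold. In the adaptor and RAS-ERK panel Ksr1 alone lies beyond 2-fold, while most genes of the panel of ETS factors and feedback targets lie at higher values, and the fitted values of Fgf6 and Fgf15, with libraries at 0, depend on the pseudocount of 1.

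Between the peptides 2 of the 66 pathway genes passed, Ccnd1 and Flrt2, beside 2.69% of all tested genes, so that their number is no result about the pathway. Ccnd1, which encodes cyclin D1, was at 964 and 926 in DMSO, 2409 and 2197 in ET-3 and 1930 and 1854 in NT, and NT was lower than ET-3 by a log2 difference of -0.28 (adjusted p = 0.0379, limma with Benjamini-Hochberg adjustment). Flrt2, a membrane protein that can bind FGF receptors, was at 726 and 731 in DMSO, 360 and 322 in ET-3 and 468 and 427 in NT, with NT higher by 0.39 (adjusted p = 0.0379, limma). Neither is a receptor or an inhibitor of the set described above, of which none passed.

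Genes with profiles most like those of the members with the largest rise and fall were found by the distance between log2 profiles over the 6 libraries, each centered on its own mean. For Fgf2 these were Gxylt2 (distance 0.184), Pde8a (0.223) and Gm17491 (0.226), where the median over all tested genes was 2.19. Gxylt2 was at 95 and 49 in DMSO and 222 to 234 in the treated libraries, with the same spread between the DMSO libraries as Fgf2. For Fgfr3 they were Btg2 (0.165), Ablim1 (0.175) and Atp8a1 (0.194), beside a median of 2.32. Btg2 was at 288 and 305 in DMSO and 75 to 81 in the treated libraries. With 6 libraries in 3 groups and 2 control libraries that carry most of the contrast, many genes can lie close to such a profile.

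Other cells that a sort could carry over were looked at by their markers. Summed endothelial markers were 12 and 24 in DMSO and 85 to 107 in the treated libraries, of which Tek alone gave 42 to 70, with Cdh5 at 0 to 5 in all 6 libraries and Emcn without a row. Fibroadipogenic markers summed to 136 and 147 in DMSO and 64 to 90 in the treated libraries, with Col15a1 at 80 and 82 in DMSO against 0 or 1 and Ly6a at 27 and 18 in DMSO against 37 to 52, so that these markers did not move one way. Macrophage markers summed to 21 to 45 in all libraries, with Ptprc, Adgre1 and Lyz2 without a row. Of the fibroadipogenic markers Lum had no row. Summed smooth muscle and pericyte markers were 1746 and 2203 in DMSO and 289 to 428 in the treated libraries. Most of this sum was Notch3, which myogenic cells also express, with 1397 and 1773 in DMSO and 284 to 409 in the treated libraries. Pdgfrb fell too, from 227 and 278 in DMSO to between 3 and 13, and Rgs5 from 117 and 150 to between 2 and 5. Myh11 was at 0 to 4 and Kcnj8 at 0 to 2 in all 6 libraries. Schwann markers summed to 3393 and 3580 against 1718 to 1840, nearly all Ncam1, with Sox10 without a row. Set beside single members, the treated endothelial sum was above the treated values of Fgf2 (48 to 58), Fgfr2 (5 to 21) and Fgfr3 (50 to 57), and it was higher in the treated libraries as Fgf2 was. The smooth muscle and Schwann sums were lower in the treated libraries, as Fgfr3, Fgfr4 and Spry1 were. None of these sums was a measured share of cells, and their part in the changes of the FGF genes was not tested.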

How the data were processed

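RNA-seq of cultured MuSCs was analysed in 6 libraries, 2 each of DMSO, ET-3 and NT, grouped by the labels. The labels name the SMART-Seq HT kit and a dose of 100 nM, while the methods describe another kit and other doses. Per the submitters' processing notes, reads were handled with FastQC, Trimmomatic 0.38, STAR 2.7.7a and featureCounts 1.6.5 on mm10, and DESeq2 1.30.0 was used. The deposited signal values are 1 whole number per gene and library. They are not raw reads, because regularly spaced numbers occur in no gene of 3 libraries, so the authors appear to have multiplied counts by 1 factor per library and rounded them. These factors (0.781 to 1.19) were estimated from the gaps and the spread. The table had 18943 genes, 0 of them mitochondrial.

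From these values log2(value + 1) was fitted with limma 3.58.1 (R 4.3.3) over all 6 libraries with trended variance, for the 13921 genes whose mean value reached 5 (all 10 members passed this filter, and 5022 genes were left out). P-values were adjusted by Benjamini-Hochberg over all tested genes. Genes passed at an adjusted p of 0.05 and were called at 2-fold in addition, the thresholds of the study. No count test was used, because the values are not reads. Levels between genes were divided by the length of all annotated exons in GENCODE M21. All 10 members were named, and from the pathway lists 8 fixed genes and, per list, up to 4 genes called in the same direction under both peptides with the largest mean change. Fgf1, Fgf5, Frs2, Mapk3, Egr1, Fosl1, Myc, Phlda1, Ier3, Ccnd1 and Flrt2 were named after their values were seen. Members, lists and tests were chosen with earlier results of these data known. Replicate numbers did not pair the libraries (correlations of deviations -0.07 to -0.008). Alternatives covered pseudocounts of 0.5 and 5, filters, scaling, voom weights, a replicate block, averaged treated pairs and each library left out. Results of 2 listed genes are not reported here. Promoter sequences came from RefSeq (GRCm38.p6). Counting errors cover counting error only.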

Additional observations from a re-analysis of the deposited data

How the results depend on the processing

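With 2-fold and an adjusted p of 0.05 (limma with Benjamini-Hochberg adjustment), 5 members were called under ET-3, 4 under NT and 0 between the peptides. Of the 66 tested pathway genes 17 were called under ET-3 and 17 under NT. The shares of all tested genes called were 21.5% under ET-3, 20.5% under NT and 0.079% between the peptides. Without the fold threshold the counts under ET-3 and NT were 10 and 9 members and 47 and 48 pathway genes, beside 63.7% and 62.2% of all tested genes. Leaving out 1 library at a time gave 4 to 5 members under ET-3, 4 under NT and 0 between the peptides, and 16 to 18 and 13 to 17 pathway genes. With the replicate number as a replicate block, 5, 4 and 0 members and 17 and 16 pathway genes were called, and no member's call changed, but the numbers do not pair the libraries. With each treated pair averaged, 4, 3 and 0 members were called. Fold changes that changed sign were all small and not called: Fgfr2 under NT without NT replicate 2 (0.00, range -0.76 to 0.00 over the libraries left out), Spred1 between the peptides without NT replicate 1 (-0.04, range -0.04 to 0.06), Spred2 between the peptides once a trend on coverage per base of exon was removed (0.07), and Nf1 under ET-3 with each library scaled to its total (0.01), and the cause was not tested. Scaling to library totals moved the median of all tested genes to 0.077 under ET-3 and 0.097 under NT. Of the single values of members, 152 under ET-3 and 153 under NT kept direction and side of the threshold, 7 and 5 kept direction but no longer passed, and 1 under NT changed sign. Depth limits Fgfr2 and Fgf2, whose counting error reached 48.8% and 32.3% of the value. With 2 libraries per group, and treated pairs that differ by no more than sampling noise, the p-values do not measure variation between cultures or mice.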
